A study of Mus musculus with 13 samples.

Results

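H3K27me3 in oligodendrocyte progenitor cells (OPCs) was compared with H3K27me3 in newly formed oligodendrocytes (NFOs), using every listed called peak of both ChIP-Seq libraries. The members are 29417 H3K27me3 intervals of OPCs and 12688 of NFOs, 42105 of the 175781 intervals in the 8 ChIP-Seq lists of the series. Both cell types were acutely purified by immunopanning from C57BL/6 mouse brain at postnatal day 7, from males and females in about equal number. Microglia and endothelial cells were first removed on BSL-1 plates, OPCs were then taken on plates with an antibody to PDGFRα, and NFOs were taken after them on plates with antibody to GalC, so each library is a panned population and not a single clone or animal. No agent or transgene was used in either group. The third stage of the series, cultured neural stem cells (NSCs) from embryonic cortex, for which the labels and the Methods name different strains, entered only as a further readout. Each cell type has 1 library, so no difference between OPCs and NFOs could be tested against replicates, and all intervals on shares below are exact binomial (Clopper-Pearson) 95% intervals that cover counting error alone.

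Overlap of at least 1 bp made an interval shared, and an interval without it was listed in one stage only. For genes, the number of bp covered by H3K27me3 intervals was counted up to 2 kb to each side of the transcription start site (TSS), a window of 4001 bp, for 35312 genes of GENCODE release M21 (21938 protein-coding genes and 13374 lncRNAs) on mm10. A gene with 0 bp in OPCs and at least 1 bp in NFOs is called gained, and the reverse is called lost. These words describe lists of called peaks. In a bulk population, fewer marked cells and less mark per cell cannot be told apart, and the number of reads behind each list is unknown.

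The sample titles and the antibody field of the labels name opposite marks for the 6 histone libraries, and the titles were followed. The library titled H3K27me3 covered the TSS windows of 39 of 39 Hox genes in both cell types and of 1 of 16 housekeeping genes in OPCs and 0 of 16 in NFOs. The libraries titled H3K4me3 covered 15 of the 16 housekeeping genes in OPCs and 14 in NFOs. Of 18 genes known from OPCs, 16 had H3K4me3 in OPCs and 14 had it in NFOs, including Pdgfra, the receptor used for panning, with 2904 bp of H3K4me3 in OPCs and 1972 bp in NFOs. Of 21 myelin genes, 9 had H3K4me3 in OPCs and 7 in NFOs, and Mog, which encodes a myelin protein, had 0 bp in both, as did Mbp in NFOs (1200 bp in OPCs) at the 5′ end of the gene. Over all protein-coding genes, H3K4me3 lay within 2 kb of the TSS at 57.6% in OPCs and 40.1% in NFOs, and the list counts should be read beside these shares. Markers of other cell types were marked too. H3K4me3 lay at 2 of 17 microglial and endothelial genes in each cell type (2.27 kb in all in OPCs, 0.453 kb in NFOs), at 17 of 25 neuron genes in OPCs and 12 in NFOs, and at 10 of 16 astrocyte genes in OPCs and 8 in NFOs. H3K4me3 over the housekeeping genes summed to 21.4 kb in OPCs and 11.3 kb in NFOs, so the H3K4me3 list of NFOs was shorter even there.

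H3K27me3 is the trimethylation of lysine 27 of histone H3. It is written by Polycomb repressive complex 2, whose catalytic subunit is EZH2 or EZH1, is bound by CBX proteins of Polycomb repressive complex 1, and marks silent genes, above all developmental regulators with CpG islands at their promoters. H3K4me3 marks the promoters of active genes and, where both marks meet, of genes called bivalent. In the oligodendrocyte lineage, PDGFRα-positive progenitors leave the cell cycle and turn on myelin genes, while genes of neurons, astrocytes and other germ layers stay silent.

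The promoters below are shown because CpG content varied widely within these classes. They are single genes, and lost and gained genes had the same median CpG count. Each is the stretch of 30 bases with the most CpG in the 300 bases from 250 upstream to 50 downstream of the TSS, read from GRCm38.p6 (the build of mm10) on the strand of the gene, with CpG in capitals. Hoxa5 and Neurod1 were covered in both cell types, Abcg8, Cfc1 and Epha8 were lost, Klrg2 and Hes3 were gained, and Olig2 had no H3K27me3 interval in either.
Hoxa5 (chr6:52204603-52204632, minus strand): CGggtggCGgggaCGCGcccagggCGCGCG
Neurod1 (chr2:79456739-79456768, minus strand): CGggagtCGttcagtctggaCGCGtgCGCG
Abcg8 (chr17:84676060-84676089, plus strand): cagcatCGctgtgtatCGcaaCGtctCGCG
Cfc1 (chr1:34535398-34535427, plus strand): tcCGgctgagccctttttatctcccaggcc
Epha8 (chr4:136956776-136956805, minus strand): aggagCGCGccaCGCGCGgcCGcCGggcCG
Klrg2 (chr6:38637336-38637365, minus strand): ccacCGcccactctgtgactCGctcaacCG
Hes3 (chr4:152291740-152291769, minus strand): tggaaagggagtCGgtggcctacatcccCG
Olig2 (chr16:91225314-91225343, plus strand): ccctcctCGCGaatctctctacCGCGggCG

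The OPC list held 2.32 times as many H3K27me3 intervals as the NFO list but only 1.55 times as many bp, 21.9 Mb against 14.1 Mb. Of the OPC intervals, 7464 overlapped an NFO interval (25.4%, 24.9 to 25.9%), and 7558 of the NFO intervals overlapped an OPC interval (59.6%, 58.7 to 60.4%). Among the 7464, 2149 (28.8%) had a start or end within 5 bp of an NFO one. For OPC intervals that overlapped an NSC H3K27me3 interval this share was 3.34%. Edges also coincided with those of H3K4me3 intervals, as given below, and the cause was not tested. The bp covered in both cell types, 9.004 Mb, made up 41.1% of the OPC bp and 63.7% of the NFO bp. When the OPC list was cut to the 12688 intervals with the highest −log10 q, 31.9% of them and 35.3% of the NFO intervals were shared. With the 12688 widest OPC intervals in their place, 41.7% and 44.8% were shared. Both alternatives were chosen after the data were seen.

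The share of intervals with a partner was higher in wider classes. Among intervals under 300 bp, 11.5% in OPCs (1624 of 14107) and 39.9% in NFOs (1763 of 4422) were shared. Between 1 and 2 kb the shares were 61.7% in OPCs and 82.0% in NFOs, and between 2 and 5 kb they were 94.1% and 97.3%. At 5 kb or more, 495 of 495 OPC intervals (lower bound 99.3%) and 449 of 449 NFO intervals (lower bound 99.2%) had a partner in the other cell type. An overlap of 1 bp is met more easily by a wide interval. By the share of their bp covered by the other list, OPC intervals went from 10.8% under 300 bp to 35.5% between 1 and 2 kb and 84.2% at 5 kb or more, and NFO intervals from 37.6% to 52.1% and 89.2%.

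**Figure D1:**
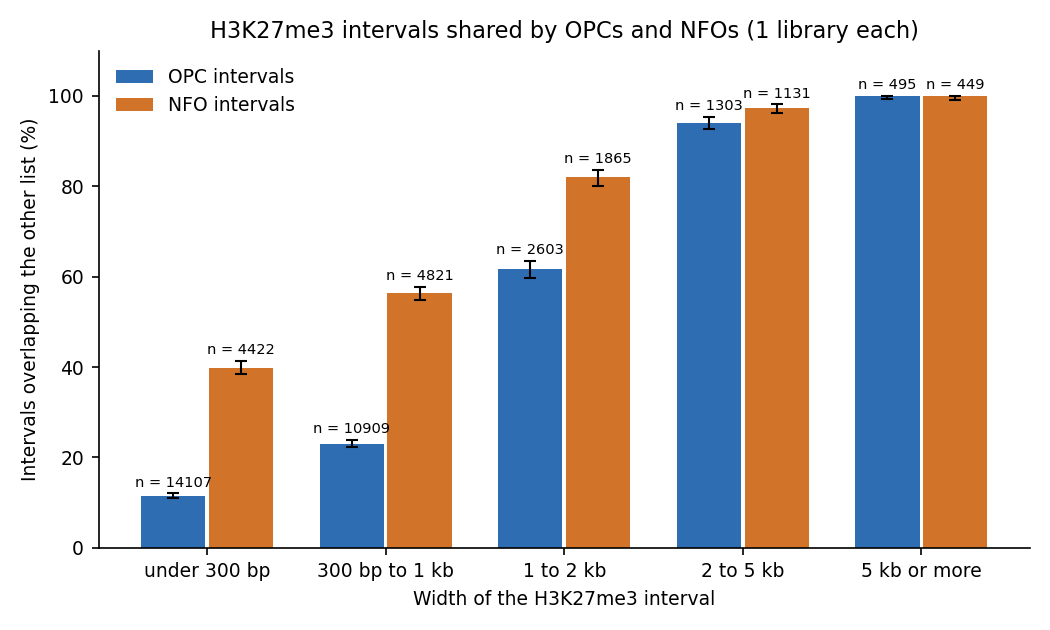
Share of H3K27me3 intervals (%) that overlap the other list by at least 1 bp, by width of the interval, for OPCs (blue) and NFOs (orange). Bars start at 0, error bars are exact binomial 95% intervals and n is the number of intervals. The share climbs with each width class in both lists, from 11.5% and 39.9% under 300 bp to 100% at 5 kb or more.

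The median width was 329 bp in OPCs (quartiles 197 and 767 bp) and 580 bp in NFOs (224 and 1082 bp). Shared intervals were of similar width in the lists, with medians of 885 bp (OPCs) and 822 bp (NFOs). Intervals of one stage had medians of 241 bp (OPCs) and 282 bp (NFOs). The widest of them reached 3608 bp in OPCs and 3890 bp in NFOs, and 4.89% of those in OPCs and 7.15% of those in NFOs were 1 kb or wider. The fold enrichment over the control, as the authors' peak caller gave it, had a median of 4.87 for shared and 3.75 for one-stage OPC intervals, and of 4.07 and 3.53 in NFOs.

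In 5469 cases 1 OPC interval matched 1 NFO interval. The OPC interval was the wider in 3303 of these pairs, the NFO interval in 2113, and 53 were equal. Their median width was 767 bp in OPCs, against 710 bp in NFOs. The fold enrichment was the higher in OPCs in 3889 pairs, with medians of 5.04 and 3.92. Overlap with more than 1 interval was found in both directions. A set of 763 OPC intervals overlapped at least 2 NFO intervals each (7 at most), and 709 NFO intervals overlapped at least 2 OPC intervals (10 at most).

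The widest intervals lay at homeobox and T-box genes and at loci with few or no annotated genes. After an OPC interval of 53817 bp on chromosome 8 (123537410 to 123591226) with no TSS of the annotation within 2 kb, the next widest in OPCs lay over Hoxc4 and Hoxc6 (44928 bp), over Hoxa3 to Hoxa7 (44854 bp), over Hoxa7 to Hoxa13 (37549 bp) and over Hoxc5, Hoxc9, Hoxc10 and Hoxc11 (35528 bp). NFO intervals covered between 86.5% and 97.7% of these 4 domains. In NFOs the widest intervals with annotated genes other than predicted ones lay over Hoxc5, Hoxc9 and Hoxc10 (31382 bp) and over Tbx15, a T-box factor of mesoderm (31091 bp). The others of the 5 widest in NFOs were an interval of 46698 bp on an unplaced scaffold, one of 37113 bp that overlapped the wide OPC interval on chromosome 8, and one of 32476 bp at the start of chromosome 9 over a run of predicted genes. How well reads map at these other loci was not tested, so they may not be domains of the mark. The 5 widest intervals of one stage had no TSS within 2 kb in either list.

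Hox genes, which give cells their position along the body axis, were covered in both cell types in every case, beside 6.75% of all protein-coding genes. H3K27me3 covered 95.5% of the Hoxa cluster in OPCs in 4 intervals and 93.3% in NFOs in 7. It covered 72.5% and 65.2% of the Hoxb cluster in 20 and 25 intervals, 94.8% and 89.5% of the Hoxc cluster in 7 and 12, and 92.3% and 82.9% of the Hoxd cluster in 9 and 15. In each of the 4 clusters the NFO list covered less and held more intervals. Around the 39 TSSs the median covered length was 4001 bp in OPCs and 3258 bp in NFOs, with 19 genes covered over more bp in OPCs, 4 in NFOs and 16 equal. Hoxc11 stood lowest in NFOs, with 4001 bp in OPCs and 1141 bp in NFOs. Hoxa13, Hoxb13, Hoxc13 and Hoxc6 were the 4 with more in NFOs, Hoxa13 with 1980 bp in OPCs and 2704 bp in NFOs.

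Among the 21938 protein-coding genes, 1481 were covered in both cell types (6.75%), 1467 were lost (6.69%) and 284 were gained (1.29%). Genes covered in both made up 50.2% of the 2948 genes covered in OPCs and 83.9% of the 1765 covered in NFOs. The lncRNAs gave the same picture, with 598 covered in both (4.47%), 673 lost (5.03%) and 121 gained (0.905%). The order of lost and gained genes depended on which OPC intervals were used. Over all 35312 genes there were 2140 lost (6.06%) against 405 gained (1.15%), with 2079 covered in both (5.89%). With the OPC list cut to the 12688 intervals of highest −log10 q, which had a median width of 235 bp, the order turned, with 1000 lost and 1181 gained. With the 12688 widest OPC intervals, which had a median width of 824 bp, 873 were lost and 747 gained.

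Most changes of class were small in bp. In lost genes the median covered length in OPCs was 258 bp, and 799 of the 1467 (54.5%) had under 300 bp. In gained genes the median in NFOs was 322.5 bp, and 132 of 284 had under 300 bp. At least 1 kb was covered in 99 lost and 24 gained genes. By contrast, genes covered in both had medians of 1270 bp (OPCs) and 996 bp (NFOs). When at least 500 bp had to be covered, 689 protein-coding genes were lost (3.14%), 215 gained (0.98%) and 978 covered in both (4.46%), and at a minimum of 1000 bp 343 were lost (1.56%), 121 gained (0.552%) and 642 covered in both (2.93%). Under that rule a gene just under the minimum counts as uncovered. Just outside the window, 180 of the lost genes (12.3%) had an NFO interval within 5 kb of the TSS, and 102 of the gained genes (35.9%) had an OPC interval there. In 32 lost and 20 gained genes, an interval that reached into the window was itself shared with the other cell type outside it. Sox5, with 19 bp in OPCs, lay just inside the lost class, and Cdkn2c, with intervals of both cell types within 5 kb but none within 2 kb, lay outside the classes.

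In genes covered in both, intervals lay over the TSS itself in 31.4% of genes in OPCs and 24.98% in NFOs, with a dip there. The highest shares were 45.2% at 800 bp upstream in OPCs and 41.3% at 1400 bp downstream in NFOs, while the sides were close at 1 kb, with 44.6% upstream and 43.3% downstream in OPCs and 38.9% and 39.4% in NFOs. In lost genes 5.59% had the OPC interval over the TSS, 15.4% at 1 kb upstream and 9.61% at 1 kb downstream. In gained genes 5.28% had the NFO interval over the TSS, 18.0% at 1 kb downstream and 11.97% at 1 kb upstream. H3K4me3 intervals of OPCs were most frequent 300 bp downstream of the TSS, at 43.7% of genes covered in both, 50.8% of lost and 50.4% of gained genes.

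**Figure D2:**
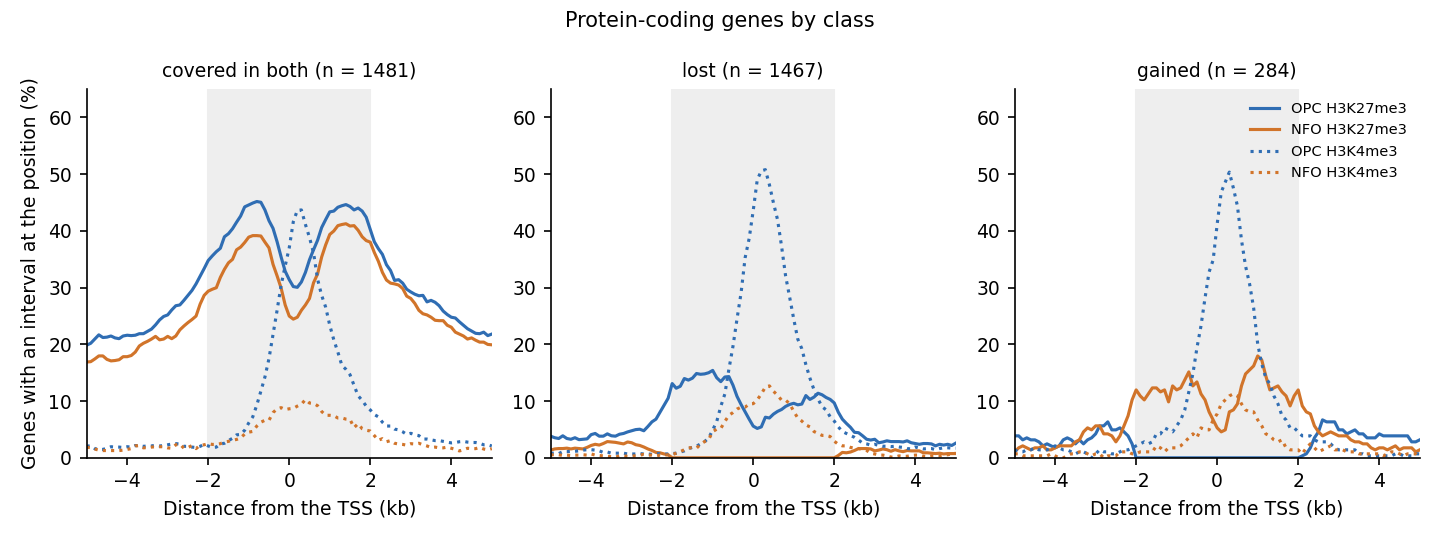
Share of protein-coding genes (%) with a called interval at each distance from the TSS (kb, on the strand of the gene, in steps of 100 bp), for genes covered in both cell types, lost and gained. Solid lines are H3K27me3 and dotted lines H3K4me3, blue for OPCs and orange for NFOs, and grey marks the window of 2 kb on each side that defined the classes, so the lists at 0 inside it are so by definition. H3K27me3 dips at the TSS, to 30.05% in OPCs and 24.4% in NFOs for genes covered in both.

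The 10 protein-coding genes gained with the most bp were Hes3, Klrg2, Kcng2, Cped1, Kcnq1, Myof, AC109138.7, Clcf1, Tigd4 and Tgfbi. Hes3 encodes a bHLH repressor of the Hes family that is expressed in neural progenitors. It had 0 bp of H3K27me3 within 2 kb in OPCs and 2334 bp in NFOs, in an interval from -333 to 2319 bp of the TSS (mm10, chromosome 4, 152289343 to 152291995) with a fold enrichment of 4.46. An OPC interval of 855 bp lay upstream, from -4204 to -3350 bp. Hes3 had no H3K4me3 in either cell type.
Klrg2, which encodes a lectin-like receptor, had no covered bp in OPCs, and 2 intervals covered 2200 bp in NFOs. In OPCs its TSS instead carried an H3K4me3 interval of 1308 bp, which was not listed in NFOs. Clcf1, a cytokine of the CNTF receptor, and the predicted gene AC109138.7 beside it shared 1 NFO interval, with 1501 bp in NFOs and 0 bp in OPCs, and 738 bp of H3K4me3 in OPCs and 0 bp in NFOs. They are 1 event counted at 2 genes.
Kcng2 and Kcnq1 encode voltage-gated potassium channel subunits and had 1878 and 1551 bp in NFOs. Myof, a ferlin of membrane repair, had 1522 bp in NFOs and Tgfbi, a secreted matrix protein, 1342 bp, and neither had H3K4me3 in OPCs or NFOs. Outside the windows but within 5 kb of the TSS, OPC intervals covered 210 bp at Myof and 249 bp at Clcf1 and AC109138.7. Cped1, with 1562 bp in NFOs, had H3K4me3 in both cell types (1558 bp in OPCs, 1663 bp in NFOs), and Tigd4 had 1472 bp. Of these 10 genes, 1 had H3K27me3 in NSCs, Kcng2 with 241 bp. Their fold enrichments in NFOs lay between 3.28 and 4.46, so that none of the 10 was gained at a fold enrichment above 5, while 7 were gained when both lists were held to the Methods' filter, with FDR under 0.05 and enrichment over 3.5-fold.

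Another 14 genes, named after their values were seen, were gained with between 1001 and 1276 bp. Cbx7, which encodes a chromobox subunit of Polycomb repressive complex 1, had 1046 bp in NFOs, from -621 to 424 bp of its TSS, and 0 bp in OPCs. Within the gene body, up to 5939 bp downstream of the TSS, an interval of 1744 bp was listed in OPCs and one of 729 bp in NFOs, and both shared an edge with H3K4me3 intervals. Pdyn, which encodes the opioid precursor prodynorphin, had 1249 bp in NFOs, and the neuropeptide receptors Galr1 and Npbwr1 had 1081 and 1039 bp. Both receptor genes had H3K4me3 in OPCs (917 and 1330 bp) and 0 bp of it in NFOs. Hif3a, a factor of the hypoxia response, had 1088 bp, and the epithelial factor Grhl1 1064 bp. The others were Il1rl2, Slc44a3, Cers6, Rasl11b, Vps13a, Sntn, Galnt6 and Cep170b.

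The 10 genes lost with the most bp were Abcg8, Cfc1, Crym, Epha8, Prex2, Lrp2, Blk, Cldn23, Scn1a and Il17rd. Abcg8, a sterol transporter of liver and gut, had 2855 bp in OPCs but 0 bp in NFOs, in an interval from -2048 to 854 bp of its TSS (chromosome 17, 84674254 to 84677156) with a fold enrichment of 4.29. No NFO interval lay within 5 kb. Cfc1, an EGF-CFC coreceptor of Nodal signals in the early embryo, had 2686 bp in OPCs and 0 bp in NFOs, again with no NFO interval within 5 kb, and 2682 bp in NSCs. Neither gene had H3K4me3 in OPCs or NFOs.
Crym, which encodes a thyroid hormone binding protein, had 2297 bp in OPCs, and Blk, a B-cell kinase, 2010 bp, both without H3K4me3. Epha8, an ephrin receptor of axon guidance, had 2174 bp in OPCs and 460 bp of H3K4me3, and NFO intervals of 202 and 300 bp flanked its window, the nearer one ending at -2002 bp, just outside. Scn1a, a neuronal sodium channel, had 1990 bp in OPCs, and its H3K4me3 measured 624 bp in OPCs, 742 bp in NFOs. In that gene the lost interval and the H3K4me3 interval of NFOs began at the same base (chromosome 2, 66440666), and without intervals that shared an edge with H3K4me3 Scn1a was not lost.
Lrp2, an endocytic receptor of sonic hedgehog and other ligands, had 2042 bp in OPCs at the highest fold enrichment of the 10, 6.66. The OPC interval there measured 4084 bp and overlapped an NFO interval outside the window. NFO intervals covered 190 bp within 5 kb of the TSS. H3K4me3 at Lrp2 was 2650 bp in OPCs and 226 bp in NFOs. Without intervals that shared an edge with H3K4me3, the Lrp2 difference (NFOs minus OPCs) was -525 bp in place of -2042 bp. Cldn23, a claudin of tight junctions, had 1998 bp in OPCs, and an NFO interval of 220 bp lay 2086 bp downstream of its TSS, just outside the window. Prex2, a Rac exchange factor, had 2076 bp and Il17rd, an inhibitor of FGF signalling, 1974 bp with the lowest fold enrichment, 2.97. NFO intervals covered 1124 bp within 5 kb of the Prex2 TSS, outside the window. Above a fold enrichment of 5, 4 of the 10 were still lost, and with the OPC list cut to the length of the NFO list 6 were.

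**Figure D3:**
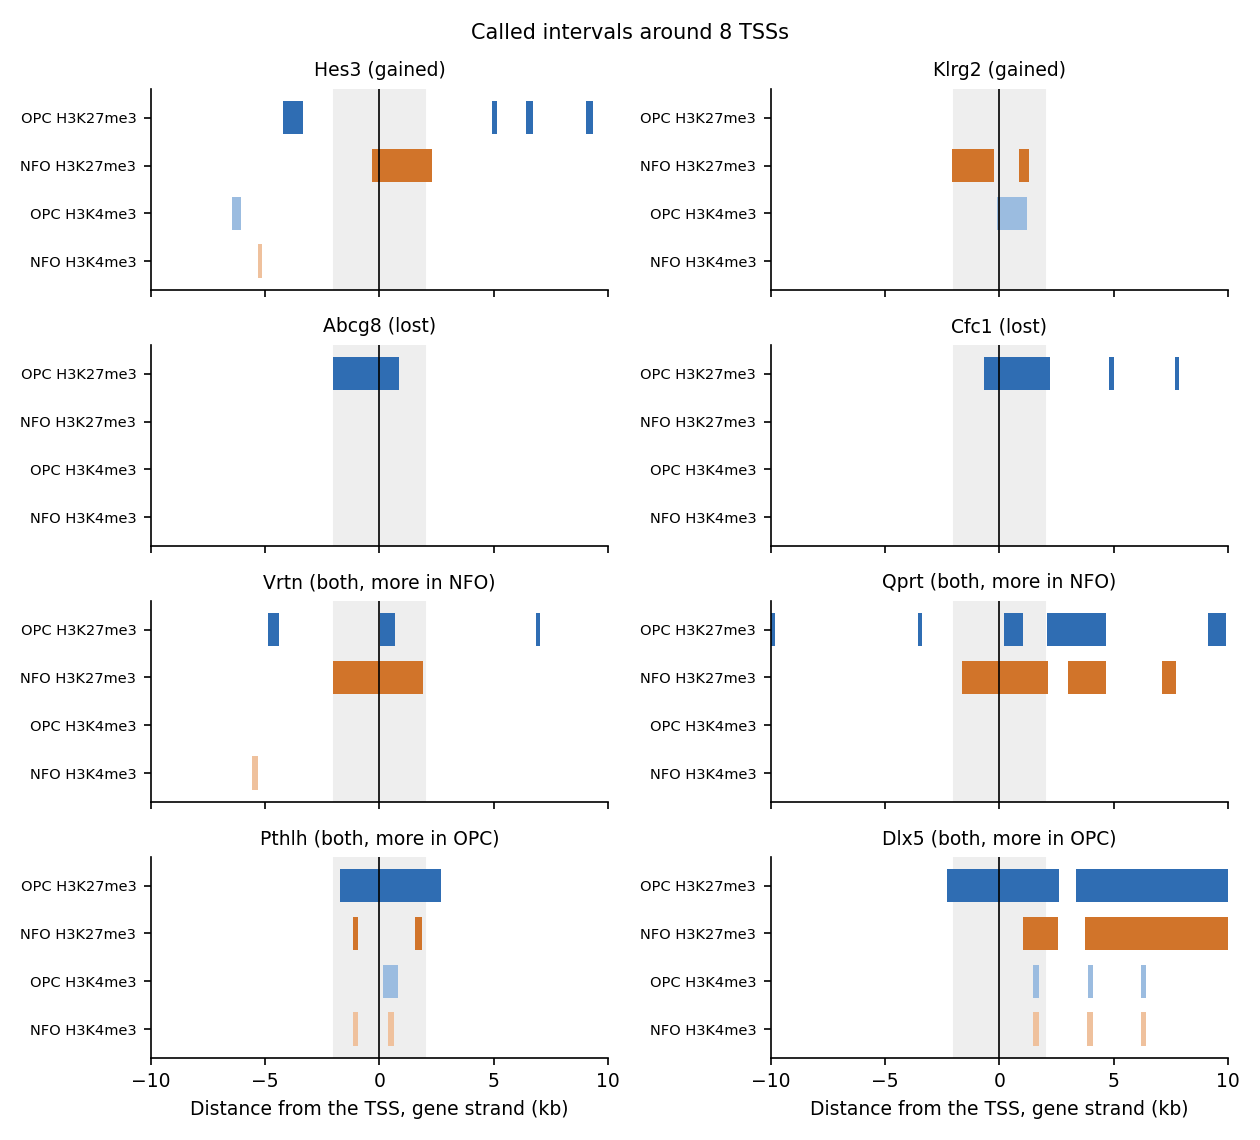
Called intervals of H3K27me3 and H3K4me3 (paler) in OPCs (blue) and NFOs (orange) within 10 kb of the TSS of 8 genes, the first 2 of each class by covered bp. The horizontal axis is the distance from the TSS in kb on the strand of the gene, bars are intervals cut at the edge of the plot, and grey marks the 2 kb on each side. Abcg8 and Cfc1 show an OPC interval over the TSS and no NFO interval, Hes3 has an NFO interval over the TSS, Klrg2 has NFO intervals on both sides of it, and the lower 4 genes show a change in covered bp within a shared mark.

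A further 26 genes were lost with at least 1.5 kb, between 1511 and 1887 bp, and are named after their values were seen. They included Klf4, a pluripotency factor with 1852 bp in OPCs and with 3259 bp of H3K4me3 in OPCs and 281 bp in NFOs. Atoh8, a bHLH factor, had 1814 bp in OPCs at a fold enrichment of 9.13, and Lgr6, a receptor of R-spondins, had 1628 bp at 7.21. Rspo2, an R-spondin that amplifies Wnt signals, had 1802 bp in OPCs, Heyl, a Notch target, 1746 bp, and Tle2, a Groucho corepressor, 1785 bp. Tac2, which encodes a tachykinin peptide, had 1511 bp, and Cbln2, a synaptic organizer, had 1714 bp at a fold enrichment of 6.70 and 1662 bp in NSCs.

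Of the 1481 protein-coding genes covered in both, 892 were covered over more bp in OPCs, 513 in NFOs and 76 equally. A difference of at least 1 kb was found in 190 genes toward OPCs and in 70 toward NFOs. Toward NFOs the 5 largest were Vrtn (647 bp in OPCs, 3906 bp in NFOs), Qprt (857 and 3615 bp), Rad21l (1085 and 3693 bp), Ppef2 (1615 and 4001 bp) and Gxylt2 (1301 and 3544 bp). Vrtn acts in the number of vertebrae, Qprt in NAD synthesis and Rad21l in the cohesin of meiosis. None of the first 4 had H3K4me3 in either cell type. Above a fold enrichment of 5, only OPC intervals remained at Ppef2 and Gxylt2, and the direction turned.
Toward OPCs the 5 largest were Pthlh (3706 bp in OPCs, 492 bp in NFOs), Dlx5 (4001 and 959 bp), Grrp1 (3997 and 976 bp), Nodal (3630 and 636 bp) and Cmtm7 (3883 and 945 bp). Pthlh encodes a hormone of cartilage and bone, Nodal a TGF-beta ligand of the early embryo and Dlx5 a homeobox factor of forebrain interneurons. The Dlx5 window lay at the edge of a domain with Dlx6. The OPC interval of 4922 bp spanned the Dlx5 TSS, while the NFO interval began 1042 bp downstream of it, and the next intervals downstream measured 25375 bp in OPCs and 21909 bp in NFOs. Grrp1 and Nodal turned the other way when the OPC list was cut to the length of the NFO list by −log10 q.

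Factors of other lineages were covered in both cell types almost throughout. Of 36 transcription factors of neuronal fate, 32 were covered in both (88.9%), 0 were lost and 0 were gained. Of all protein-coding genes, 6.75% were covered in both, 6.69% lost and 1.29% gained, so few gained genes are found in any short list. Neurod1, Lhx1 and Ebf2 had 4001 bp in both, and Eomes, of intermediate progenitors, had 2753 bp in OPCs, 2411 bp in NFOs. The median over the 32 was 3016 bp in OPCs and 2359.5 bp in NFOs, with more in OPCs at 23 and in NFOs at 5. Neurog3 went furthest toward NFOs, from 772 bp in OPCs to 2471 bp in NFOs. The other 4 had no interval in either, Pou3f3 and Cux2, of upper-layer neurons, among them.
Of 14 factors of forebrain interneurons, 12 were covered in both (85.7%, beside 6.75% of all protein-coding genes). Gsx2 was lost with 185 bp (7.14% of the list, beside 6.69%), and Gsx1 had no interval. Here more bp were covered in NFOs at 7 genes and in OPCs at 3. Dlx2 had 3129 bp in OPCs and 4001 bp in NFOs, and Sp9 had 2983 and 4001 bp. H3K4me3 was listed at 13 of the 14 in OPCs and at 8 in NFOs.
Of 60 factors of non-neural lineages, 53 were covered in both (88.3%, beside 6.75% of all protein-coding genes). Their medians were 3144 bp (OPCs) and 3200 bp (NFOs), with 20 genes on each side. Sox17 of endoderm, Gata3 of T cells and Tbx20 of heart had 4001 bp in both. Pax2, of kidney and midbrain, fell furthest, from 3127 bp in OPCs to 815 bp in NFOs. Six4 (438 bp) and the erythroid factor Gata1 (773 bp) were lost (3.33% of the list, beside 6.69%), and none was gained (beside 1.29%).

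**Figure D4:**
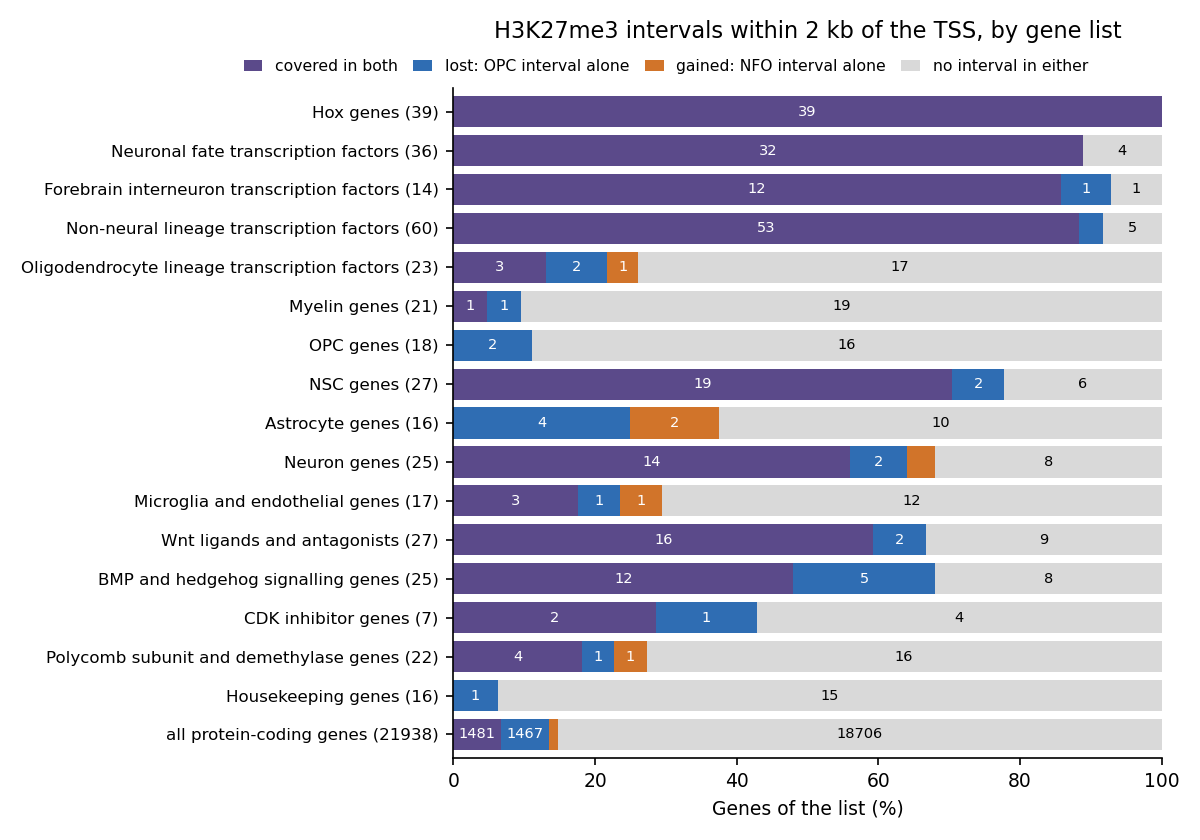
Share of the genes of each list (%) with H3K27me3 intervals within 2 kb of the TSS in both cell types, in OPCs alone (lost), in NFOs alone (gained) or in neither, with the number of genes in the list in parentheses and counts in the bars that have room for them. Hox genes and the 3 lists of transcription factors of other lineages are covered in both at 85.7% to 100% of genes, against 6.75% of all protein-coding genes, and oligodendrocyte, myelin, OPC and housekeeping genes have no interval in 73.9% to 93.75% of genes, against 85.3%.

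Of 23 transcription factors of the oligodendrocyte lineage, 17 (73.9%) had no H3K27me3 interval in either cell type, beside 85.3% of all protein-coding genes. Among the 17 were Olig1, Olig2, Sox10, Myrf and Nkx2-2, which specify the lineage or drive its differentiation. Olig2 had 4001 bp of H3K4me3 in OPCs and 2326 bp in NFOs. Olig3, a relative of Olig2 that acts in the dorsal spinal cord, had 4001 bp of H3K27me3 in both. Nkx6-1 had 3040 bp in OPCs and 2177 bp in NFOs, and Nkx6-2 had 2211 and 2916 bp. Id4, an inhibitor of bHLH factors that holds back differentiation, was gained with 205 bp, and its H3K4me3 was 2409 bp in OPCs and 806 bp in NFOs. Sox9, a glial factor that is shut off as oligodendrocytes form, was lost with 412 bp.
Of 21 myelin genes, 19 (90.5%) had no interval in either, beside 85.3% of all protein-coding genes. Mal, which encodes a proteolipid of myelin and of epithelia, had 1125 bp in OPCs and 1501 bp in NFOs, and Enpp6 was lost with 188 bp. Of 18 genes of OPCs, 16 (88.9%, beside 85.3% of all protein-coding genes), Pdgfra and Cspg4 among them, had no interval in either cell type. Susd5 (513 bp) and Matn4 (182 bp) were lost.

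Genes of NSCs stood apart from those of OPCs. Of 27, 19 were covered in both (70.4%, beside 6.75% of all protein-coding genes) and 2 were lost (7.41%, beside 6.69%). The other 6 (22.2%, beside 85.3%) had no interval, Sox2, Nes and Hes1 among them. Pax6, a factor of radial glia, had 4001 bp in OPCs and 3632 bp in NFOs, and Otx2, of the anterior neural plate, 4001 and 1950 bp. Igf2bp1, an RNA-binding protein of the embryo, had 4001 and 2093 bp. The Zic factors differed among themselves. Zic2 had 2321 bp in OPCs and 697 bp in NFOs and Zic1 had 3135 and 1422 bp, while Zic4 had 3423 and 3856 bp. Vim (175 bp) and Prom1 (397 bp) were lost.
Of 16 astrocyte genes, 0 were covered in both, 4 (25%) were lost and 2 (12.5%) gained, beside 6.75%, 6.69% and 1.29% of all protein-coding genes. Gja1, the connexin of astrocytes, was lost with 864 bp in OPCs, and an NFO interval of 626 bp began 2954 bp downstream. Slc1a3 (212 bp), Fgfr3 (207 bp) and Aldh1l1 (70 bp) were lost with less. Fam107a was gained with 763 bp and Nfib with 189 bp, while Gfap and Aqp4 had no interval.
Of 25 neuron genes, 14 were covered in both (56%, beside 6.75% of all protein-coding genes), 2 were lost (8%, beside 6.69%) and 1 was gained (4%, beside 1.29%). Slc17a6, a vesicular glutamate transporter, had 4001 bp in both, and Gad2, which makes GABA, had 2894 bp in OPCs and 3068 bp in NFOs. Slc17a7, the cortical transporter, had 1875 and 409 bp. Syt1, the calcium sensor of synaptic vesicles, was gained with 538 bp, and Nefm, a neurofilament, was lost with 943 bp. Of the 17 microglial and endothelial genes, Flt1 and Kdr, the VEGF receptors, and Cldn5 were covered in both, P2ry12 was gained (206 bp) and Tek was lost (212 bp). The other 12 (70.6%) had no interval, beside 85.3% of all protein-coding genes.

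Of 27 Wnt ligands and antagonists, 16 were covered in both (59.3%) and 2 were lost (7.41%), beside 6.75% and 6.69% of all protein-coding genes. Of the 16, 10 had more bp in NFOs and 6 in OPCs. Wnt11 had 1226 bp in OPCs and 2224 bp in NFOs and Wnt3 had 1416 and 2168 bp. Wnt9a went the other way, with 1246 and 112 bp. The ligands Wnt7b (724 bp) and Wnt10a (878 bp) were lost.
Of 25 BMP and hedgehog genes, 12 were covered in both (48%) and 5 were lost (20%), beside 6.75% and 6.69% of all protein-coding genes. Of the 12, 11 had more bp in OPCs. Bmp4, a ligand that holds back oligodendrocyte differentiation, had 3932 bp in OPCs and 1132 bp in NFOs, and its H3K4me3 covered 0 bp in OPCs but 828 bp in NFOs. Ihh had 3199 and 2303 bp, and Gdf7, the exception, had 1998 and 2221 bp. The antagonists Grem1 (476 bp) and Chrd (175 bp), the ligands Bmp2 (226 bp) and Gdf5 (196 bp) and the hedgehog target Gli1 (207 bp) were lost, all with under 500 bp.
Among 7 CDK inhibitor genes, which stop the cell cycle, Cdkn2a had 404 bp in OPCs and 1235 bp in NFOs and Cdkn2b had 1900 and 1792 bp. Cdkn1c was lost with 117 bp. Cdkn1a, Cdkn1b, Cdkn2c and Cdkn2d, 57.1% of the list, had no interval, beside 85.3% of all protein-coding genes. Of 22 genes of Polycomb subunits and H3K27 demethylases, 16 had no interval (72.7%, beside 85.3% of all protein-coding genes). Ezh2, Eed and Suz12 of the writing complex were among the 16. Cbx2 had 1744 bp in OPCs and 1486 bp in NFOs, Cbx8 had 1162 and 483 bp, Bmi1 had 199 bp in OPCs and 991 bp in NFOs, and Pcgf5 was lost (174 bp).

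Among lncRNAs, 3110039M20Rik had the most gained bp. It had 0 bp of H3K27me3 in OPCs and 3731 bp in NFOs, in an interval of 5742 bp, and its H3K4me3 was 4001 bp in OPCs and 416 bp in NFOs. OPC intervals covered 3799 bp within 5 kb of the lncRNA's TSS, outside its window. 4930449E18Rik followed with 2505 bp in NFOs. The lncRNAs lost with the most bp were Gm12827 (2319 bp), Gm44294 (2210 bp) and B430010I23Rik (2044 bp), of which Gm12827 was also covered in NSCs (3357 bp). The OPC intervals at Gm12827 and Gm44294 measured 5793 and 7435 bp, and each overlapped an NFO interval outside the window. Within 5 kb of the TSS, NFO intervals covered 2804 bp at Gm12827, 2518 bp at Gm44294 and 0 bp at B430010I23Rik.

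H3K27me3 in NSCs is a readout that the classes did not use. Of the protein-coding genes covered in OPCs and NFOs, 801 of 1481 (54.1%, 51.5 to 56.6%) also had an H3K27me3 interval in NSCs. The share was 27.9% in lost genes (25.6 to 30.3%), 7.04% in gained genes (4.35 to 10.7%) and 5.73% in genes with no interval in either (5.40 to 6.07%). The order of shared, lost and gained genes was the same at the filter of the Methods, at 48.8%, 22.0% and 6.71%, and without intervals that shared an edge with H3K4me3, at 52.2%, 30.5% and 14.9%. In that last setting the share of gained genes was more than 1.5 times the one above. The intervals themselves repeated it. Among one-stage intervals, 24.3% of those in OPCs and 4.42% of those in NFOs overlapped an NSC interval, against 37.98% and 38.8% of shared ones. Among intervals under 1 kb the one-stage shares were 23.8% and 4.28% and the shared ones 31.3% and 34.4%. The NSCs were cultured, and the peak names mark their reads as single-end and those of OPCs and NFOs as paired.

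H3K4me3 of OPCs lay at 65.4% of genes covered in both (62.9 to 67.8%), 61.8% of lost genes (59.2 to 64.3%), 63.7% of gained genes (57.8 to 69.3%) and 57.6% of all protein-coding genes. In NFOs the shares were 44.4% (41.8 to 46.9%), 40.8% (38.3 to 43.4%), 30.3% (24.99 to 35.99%) and 40.1%. Of the 181 gained genes with H3K4me3 in OPCs, 83 also had it in NFOs (45.9%, 38.4 to 53.4%), against 62.0% of such lost genes, 60.2% of such shared genes and 67.5% of all genes with H3K4me3 in OPCs. Edges often coincided between the marks. Of the NFO H3K27me3 intervals that overlapped an H3K4me3 interval of NFOs, 745 of 1605 (46.4%) started or ended within 5 bp of it, with a median width of 446 bp. In OPCs 665 of 2175 (30.6%) did so within OPCs, and 1556 of the 2863 that overlapped an NFO H3K4me3 interval (54.3%). Coinciding edges were found at 28.8% of the OPC intervals shared with NFOs and at 3.34% of those shared with NSCs. Without the 1741 OPC and 828 NFO intervals that shared an edge with H3K4me3, an alternative chosen after the data were seen that itself removes overlaps with H3K4me3, the shares of genes with H3K4me3 in NFOs were 35.7% in shared, 35.7% in lost and 39.4% in gained genes, and the order was not kept.

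**Figure D5:**
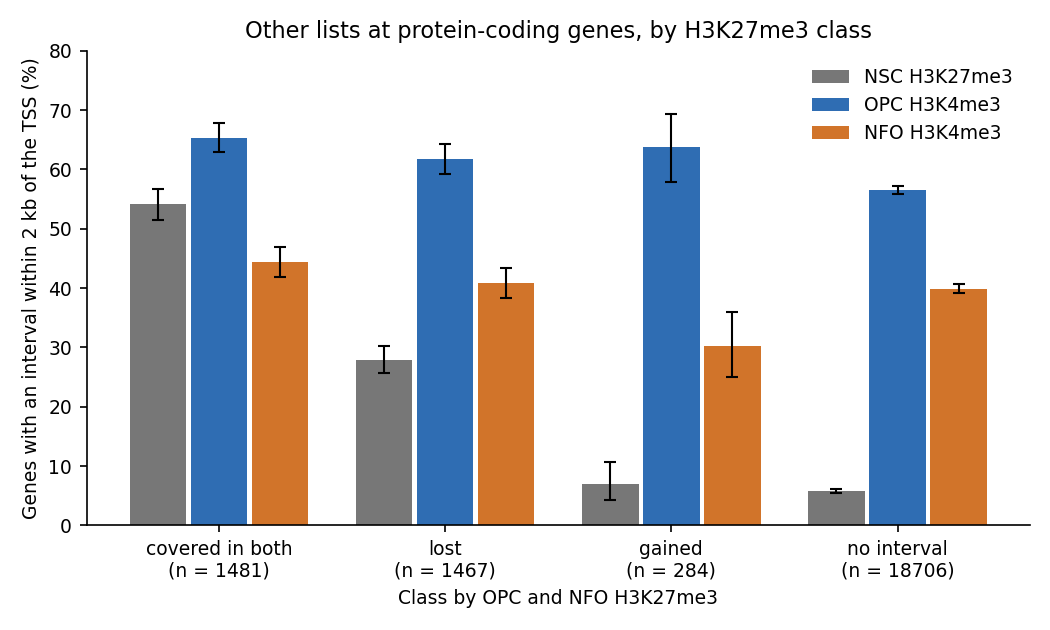
Share of protein-coding genes (%) with an NSC H3K27me3 (grey), OPC H3K4me3 (blue) or NFO H3K4me3 (orange) interval within 2 kb of the TSS, by the class of the gene in OPC and NFO H3K27me3. Bars start at 0, error bars are exact binomial 95% intervals and n is the number of genes. NSC H3K27me3 runs from 54.1% in genes covered in both to 27.9% in lost, 7.04% in gained and 5.73% in other genes.

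Promoters of genes covered in both were the richest in CpG. Of the 300 bases around the TSS, the median number of CpG was 17 in protein-coding genes covered in both, 12 in gained, 12 in lost and 10 in genes with no interval. The ratio of observed to expected CpG had medians of 0.649, 0.539, 0.549 and 0.501, and GC content medians of 61.0%, 57.3%, 57% and 54.3%. At least 10 CpG were found in 73.7% of promoters covered in both, 58.1% of gained, 57.7% of lost and 51.4% of the others, so gained and lost genes lay close to each other. The spread within a class was wide, with quartiles of 5 and 24 CpG in lost genes and of 6 and 21 in gained genes. Of the lost genes printed above, Epha8 had 56 CpG in its 300 bases, Abcg8 21 and Cfc1 2, and of the gained ones Klrg2 had 12 and Hes3 3. Promoters with like counts fell into different classes, with 29 CpG at Hoxa5 and 21 at Neurod1, covered in both, and 22 at the uncovered Olig2. In lncRNAs the medians were 9 in both, 6 in gained, 5 in lost and 3 in the others. Over the intervals themselves, CpG per 100 bp had a median of 1.22 in shared intervals of either cell type and 0.877 in one-stage intervals of either, and under 1 kb the medians were 1.06 and 0.861 in OPCs and 1.11 and 0.862 in NFOs.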

How the data were processed

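H3K27me3, H3K4me3 and OLIG2 ChIP-Seq libraries, with 1 library for each target in each cell type, were assigned from their sample titles. Per the paper's Methods, the authors aligned reads to mm10 by Bowtie2, called broad peaks in each library by MACS2 and dropped ENCODE blacklist regions. The deposited lists give each interval's fold enrichment over the control, a ratio by the authors' peak caller, and its −log10 p and −log10 q, also deposited by the authors. The lowest −log10 q was 1.002 in the OPC list and 1.014 in the NFO list. Every listed interval was used, not only the 19265 and 8589 past the filter of the Methods. Read depth is unknown. No count, test or p-value was available between cell types.

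Covered bp were counted around the 5′ end of each GENCODE M21 gene, of 35312 genes on the assembled chromosomes, while the Methods name another GENCODE release with NCBI lncRNAs. Sequences came from the RefSeq GRCm38.p6 genome. The members and gene lists were chosen with earlier results of these data known. Genes were named by a rule: the 10 gained and 10 lost with the most bp, the 5 of each direction with the largest change among those covered in both, the 5 widest intervals, and up to 6 members of each class per list; other genes, the lncRNAs included, were chosen after their values were seen. Overlaps and gene classes were tested on simulated data, and the classes of 2000 of 2000 genes were recovered. The OLIG2 and RIP-Seq lists were not used here, and a few genes of the lists are not reported here by name. Calculations ran in Python (version 3.11.15) with pandas 2.3.3, NumPy 2.4.6 and SciPy 1.17.1, and plots were drawn with Matplotlib 3.10.9.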

Additional observations from a re-analysis of the deposited data

How the results depend on the processing

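No paired analysis was possible because each cell type has 1 library and no test was made. Over 13 settings, 86 counts, shares, widths, totals and medians of observed to expected CpG were recomputed. Of the 86, 45 stayed close to the reported value (shares within their 95% interval, others within 1.5 times) and 41 did not. The rule for shares and the rule for the others are not equally strict, so the split mixes unlike criteria. Why values moved was not tested. In all settings but one, more genes were lost than gained. The gene counts given below for each setting are over all 35312 genes. With every listed interval, 405 of these were gained (1.15%), 2140 lost (6.06%) and 2079 covered in both (5.89%). Shares of genes with another mark are over protein-coding genes.

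At the filter of the Methods, 60.6% of NFO intervals were shared. Above a fold enrichment of 5, 14.8% of OPC and 84.4% of NFO intervals were shared, the lists covered 8.31 and 3.39 Mb, and 75 genes were gained, 1213 lost and 603 covered in both; Ppef2 stood at -1615 bp and Gxylt2 at -573 bp (NFOs minus OPCs). With 50% of an interval covered, 18.3% of OPC and 45.1% of NFO intervals were shared, and with gaps of up to 3 kb joined, 20.7% and 57.1%. Intervals of at least 1 kb alone gave 52.3% and 68.8% shared, with 211 genes gained, 513 lost and 977 covered in both. Within 1 kb of the TSS 1375 genes were lost, and with at least 500 bp covered 975.

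The other settings were chosen after seeing the data. With OPC intervals cut by −log10 q to the length of the NFO list, 31.9% of OPC and 35.3% of NFO intervals were shared, and 1181 genes were gained, 1000 lost and 1303 covered in both; Grrp1 stood at 976 bp and Nodal at 636 bp. The widest OPC intervals gave 41.7% and 44.8% shared, 747 genes gained and 873 lost. With the filter of the Methods in every list, NFO H3K4me3 lay at 24.7% of gained and 35.8% of lost genes, and NSC H3K27me3 at 48.8% of shared and 22.0% of lost genes. Without intervals that shared an edge with H3K4me3, 23.8% of OPC and 55.7% of NFO intervals were shared, OPC H3K4me3 lay at 61.6% of shared and 58.6% of lost genes, NFO H3K4me3 at 35.7% of shared, 39.4% of gained and 35.7% of lost genes, and NSC H3K27me3 at 14.9% of gained and 30.5% of lost genes.

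Of 270 values for named genes, 220 kept class and direction, 46 changed class and 4 changed sign. List counts moved in 152 of 432 cases, most of them small numbers. Unknown depth limits every statement that an interval is listed in one stage only.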

Other observations

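Chromosome X stood apart from the autosomes. On the autosomes between 22.3% (chromosome 1) and 29.1% (chromosome 3) of OPC intervals and between 53.4% (chromosome 18) and 65.6% (chromosome 17) of NFO intervals were shared. On X the shares were 14.9% of 1611 OPC intervals and 42.1% of 565 NFO intervals, with median widths of 227 bp and 296 bp. On Y the OPC list held 102 intervals, with a median width of 186.5 bp and 0.980% of them shared, and the NFO list 7.

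Some OPC intervals of high fold enrichment had no NFO partner. Of 776 OPC intervals with a fold enrichment of at least 10, 71.4% overlapped an NFO interval, while 23 of 23 such NFO intervals overlapped an OPC interval. The 222 strong OPC intervals without a partner had a median width of 233 bp, and 3 of them reached 1 kb. An NSC H3K27me3 interval overlapped 41.4% of them, an OPC H3K4me3 interval 12.6%, and 24.3% lay within 2 kb of a TSS. Between fold enrichments of 7 and 10, 49.4% of OPC and 97.9% of NFO intervals were shared.

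Repeat content, read from the lower-case letters of the reference, had a median of 22.9% in one-stage OPC intervals and 15.0% in one-stage NFO intervals, against 17.2% and 17.0% in shared ones.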
